A study of Mus musculus with 32 samples.

Results

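The RNA levels of Ctcf and of 9 autosomal cohesin genes (Smc3, Rad21, Stag1, Nipbl, Mau2, Pds5a, Pds5b, Esco1 and Esco2) were compared between WT mouse embryonic stem cells (mESCs) and mESCs labelled Eed-/-. The 10 genes were found by symbol in the RNA-seq tables of both libraries, which list 24028 symbols. The study asked how Polycomb keeps DNA methylation valleys (DMVs), long unmethylated regions over developmental genes, free of methylation, and it measured chromatin contacts of bait regions in DMVs by 4C-seq. No 4C-seq, methylation or binding data were analysed here, so the values below describe only the RNA of the looping machinery. The deposited unit is FPKM, a fragment number scaled to transcript length and to the mapped fragments of the library, with 1 library per genotype.

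Both RNA-seq libraries are labelled as mESCs of the line TT2, with the genotypes WT and Eed-/-, whereas Eed-/- samples of the remaining assays carry a different line label. Both were grown in DMEM with FBS and leukemia inhibitory factor (LIF) on gelatinized plates. EED is the subunit of Polycomb repressive complex 2 that binds methylated H3K27. The Eed transcript was at 63.0 FPKM in WT against 70.9 in the second library. This RNA level does not check the genotype, so the sample is referred to below as the library labelled Eed-/-. No replicate check of any difference was possible and no test was made.

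CTCF is a zinc finger protein that binds DNA at a directional motif and halts cohesin there. Cohesin is a ring of SMC1A, SMC3 and RAD21 with a STAG1 or STAG2 subunit, and it holds sister chromatids together and extrudes chromatin loops. NIPBL with MAU2 loads the ring and drives extrusion, PDS5A and PDS5B bind it and regulate its release and pausing, and ESCO1 and ESCO2 acetylate SMC3. In mESCs these proteins shape topological domains and the loops anchored at CTCF sites.

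RefSeq promoter windows of 250 bases before a transcript start were found for 6 of the 10 genes, Ctcf, Smc3, Stag1, Mau2, Pds5a and Pds5b. Of these, 3 are printed 5′ to 3′ with every CpG, the site of DNA methylation, in capitals: Ctcf as the DNA-binding partner of the ring, Smc3 as the ring subunit with a higher level, and Pds5a as the window richest in CpG. The windows, from the GRCm38.p6 annotation, were each located in mm9 by a single exact match on their chromosome: Ctcf at chr8:108160188-108160437 on the plus strand, Smc3 at chr19:53674636-53674885 on the plus strand and Pds5a at chr5:66089476-66089725 on the minus strand.
Ctcf: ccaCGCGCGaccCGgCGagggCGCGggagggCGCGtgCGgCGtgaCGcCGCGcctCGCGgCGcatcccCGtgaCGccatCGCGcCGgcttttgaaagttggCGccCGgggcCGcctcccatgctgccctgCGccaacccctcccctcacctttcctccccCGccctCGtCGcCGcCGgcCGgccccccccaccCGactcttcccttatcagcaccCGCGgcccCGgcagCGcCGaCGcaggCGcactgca
Smc3: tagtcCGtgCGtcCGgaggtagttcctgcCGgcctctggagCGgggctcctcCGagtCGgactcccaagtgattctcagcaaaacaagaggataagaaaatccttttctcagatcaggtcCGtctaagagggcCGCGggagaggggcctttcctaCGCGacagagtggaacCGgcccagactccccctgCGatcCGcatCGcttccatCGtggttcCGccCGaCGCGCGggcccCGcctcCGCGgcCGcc
Pds5a: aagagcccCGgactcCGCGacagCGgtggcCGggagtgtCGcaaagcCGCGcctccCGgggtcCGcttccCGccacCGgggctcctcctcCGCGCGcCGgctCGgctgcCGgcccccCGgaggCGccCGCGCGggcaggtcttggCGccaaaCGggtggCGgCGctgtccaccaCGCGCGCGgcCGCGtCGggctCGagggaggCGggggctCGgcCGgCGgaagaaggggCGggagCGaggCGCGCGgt
These windows held 40 CpG in Ctcf, 26 in Smc3 and 44 in Pds5a, against a median of 6 over 32851 promoter windows. As many CpG or more were found in 1.31%, 9.59% and 0.539% of all windows, respectively, and 92.1% of all windows held at least 1 CpG. Pds5b had 36 CpG, in a window that overlaps the start of its GENCODE gene model. Stag1 had 31, in a window that lies inside its gene model, downstream of the start of that model. The 2 windows of Mau2 had 18 and 1, and the one with 1 CpG also lies inside the gene model. The CpG-rich windows thus belonged both to genes whose RNA was higher in the library labelled Eed-/- (Smc3, Pds5b) and to genes whose RNA was close to the WT level (Ctcf, Pds5a, Stag1).

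All 10 genes were expressed in both libraries. Their deposited FPKM ranged from 5.65 to 68.7 in WT, and from 7.64 to 62.5 in the library labelled Eed-/-. In WT the order from high to low was Rad21, Ctcf, Smc3, Pds5a, Esco2, Stag1, Mau2, Pds5b, Nipbl and Esco1. Pds5a and Esco2 were neighbours that did not differ beyond counting error (ratio 1.03, 95% interval 0.938 to 1.13), and neither did Mau2 and Pds5b (ratio 1.13, 0.999 to 1.28). In the library labelled Eed-/-, Smc3 stood first, followed by Rad21 and Ctcf, and Stag1, Nipbl and Pds5b formed a run of neighbours whose ratios could not be told from 1. The ratio of the highest to the lowest of the 10 levels was 12.2 in WT against 8.18 in the other library. Such intervals are exact binomial intervals on recovered fragments. They cover counting error only, since fragments copied by PCR are not independent molecules, and they leave out the spread between cultures.

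**Figure D1:**
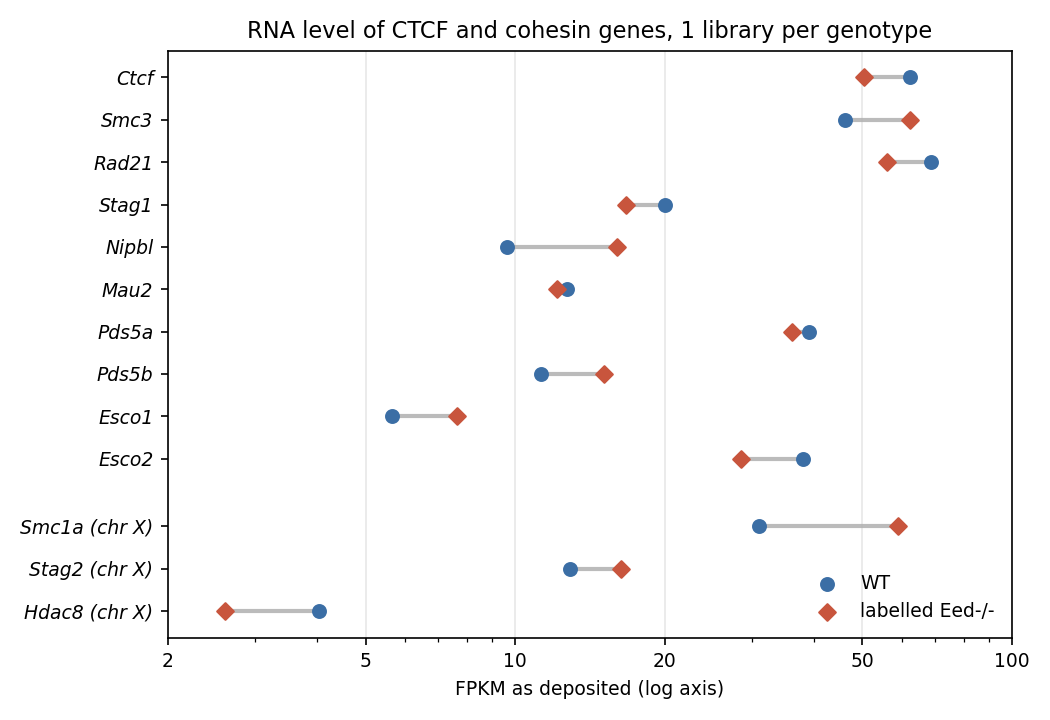
Deposited FPKM (log axis) of the 10 genes and, below them, of 3 X-linked cohesin genes, with the WT library as circles and the library labelled Eed-/- as diamonds, 1 library per genotype. Smc3, Nipbl, Pds5b, Esco1, Smc1a and Stag2 lie to the right in the library labelled Eed-/-, and Ctcf moved from 62.5 to 50.5.

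A change is given as the difference in log2(FPKM + 1) after quantile normalization, labelled Eed-/- minus WT, and a ratio as that of the normalized FPKM. The 10 genes fell into 2 sets. Nipbl, Smc3, Pds5b and Esco1 had more RNA in the library labelled Eed-/-, at ratios of 1.85, 1.57, 1.49 and 1.504 whose counting intervals lay above 1. Ctcf, Rad21, Stag1, Mau2, Pds5a and Esco2 lay between 0.86 and 1.07 times the WT level. None of the 10 genes reached a 2-fold change, where 3.8% of the 14835 genes that averaged 0.1 normalized FPKM or more were 2-fold higher and 3.98% 2-fold lower. At 1.5-fold on this log2 scale, Nipbl and Smc3 were higher and none was lower, beside 12.3% of all genes higher and 12.4% lower. The median change of the 10 genes was 0.08, beside a median of 0.01 over all genes. Changes of single genes had quartiles of -0.31 and 0.32, which set no range for a median of 10 genes.

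**Figure D2:**
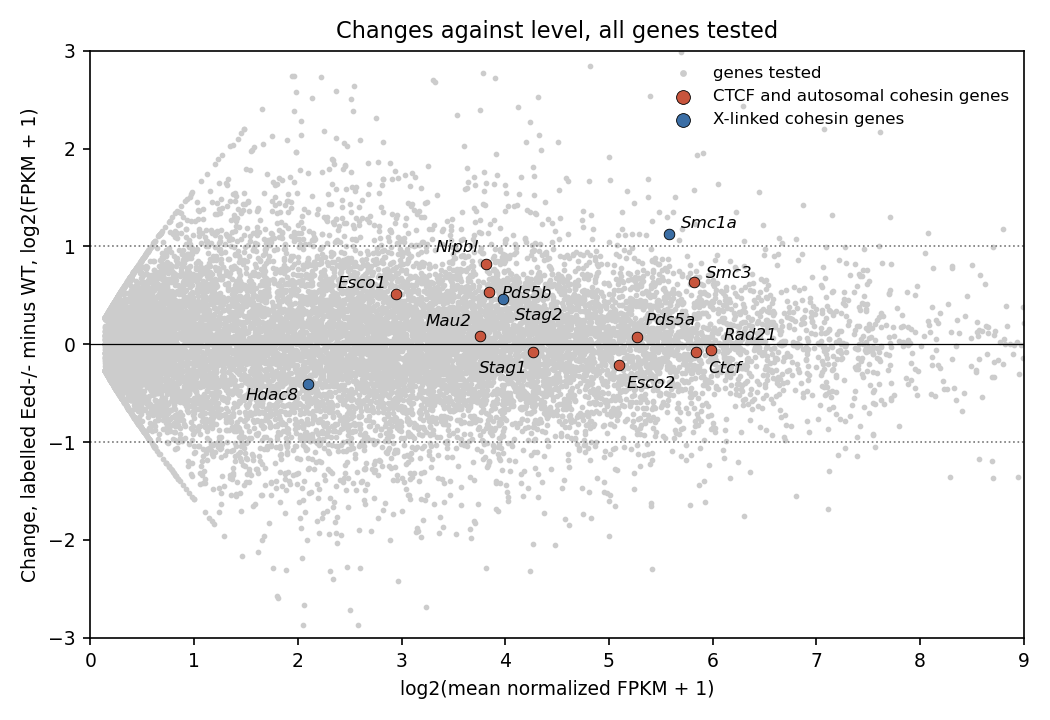
Change (labelled Eed-/- minus WT, log2 of normalized FPKM + 1) against log2 of the mean normalized FPKM + 1 for genes tested (grey), the 10 genes (red) and the X-linked cohesin genes (blue), with dotted lines at 2-fold. The 10 genes lie inside the dotted lines, Smc1a lies above the upper one at 1.12, and 146 genes lie outside the axes.

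Ctcf is on chromosome 8 of mm9 from 108160468 to 108206822 on the plus strand, with 12 exons. It was at 62.5 FPKM in WT (about 1629 fragments) against 50.5 FPKM in the library labelled Eed-/- (about 1174 fragments). After normalization the levels were 57.8 and 54.6, a change of -0.08 and a ratio of 0.94 (0.88 to 1.02). After quantile normalization the difference in Ctcf was thus not larger than counting error. It was larger under median-ratio scaling, at -0.18, and in the FPKM as deposited, at -0.30. Genes of chromosome 8 as a whole had less RNA in the library labelled Eed-/-. Their median change was -0.39 over 753 genes, with 34.4% of them at least 1.5-fold lower. Against that median, Ctcf was higher by 0.31. The part of the chromosome-wide shift in the level of Ctcf was not tested. The 3 genes nearest to Ctcf in both libraries by Euclidean distance on the log2 scale were Nap1l4 (62.4 and 50.9 FPKM), Polr2g (61.4 and 50.3) and Sec61b (61.0 and 50.5), which lie on chromosomes 7, 19 and 4. They were chosen for that likeness over only 2 libraries.

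Among the ring subunits, Rad21, the subunit cleaved by separase at anaphase, was at 68.7 FPKM in WT against 56.1 in the library labelled Eed-/-. Its normalized levels were 63.5 and 61.0, with a change of -0.06 and a ratio of 0.96 (0.89 to 1.03). The change of Rad21 was beyond counting error under median-ratio scaling, at -0.16, and in the FPKM as deposited, at -0.29. Rad21 lies on chromosome 15 of mm9 from 51794151 to 51823306 on the minus strand, with 14 exons. Ctcf and Rad21 kept nearly the same ratio to each other, 0.909 (0.849 to 0.973) in WT against 0.899 (0.830 to 0.975) in the library labelled Eed-/-. The median change was -0.39 on chromosome 8, which carries Ctcf, and 0.01 on chromosome 15. The part of that difference in this ratio was not tested.

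Smc3, whose product pairs with SMC1A and is acetylated by the ESCO enzymes, was at 46.1 FPKM in WT (about 1559 fragments) against 62.5 in the library labelled Eed-/- (about 1886 fragments). It was the member with the highest level in the library labelled Eed-/- and only the third in WT. The normalized levels were 43.2 and 67.7, a change of 0.64 and a ratio of 1.57 (1.46 to 1.68), above counting error and higher than in 89.6% of genes that averaged 5 normalized FPKM or more. Smc3 spans 29 exons on chromosome 19 from 53674886 to 53720323 on the plus strand. Partial copies of its transcript at 95% identity or more were found at 3 other places in the genome and covered 20.4% of it. Whether reads were shared with them was not tested.

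Stag1, one of the alternative subunits through which cohesin contacts CTCF, was at 20.01 FPKM in WT against 16.7 in the library labelled Eed-/-. A change of -0.08 and a ratio of 0.94 (0.85 to 1.04) were within counting error, while the change of -0.25 in the FPKM as deposited was not. The gene has 34 exons on chromosome 9 from 100498217 to 100858964 on the plus strand. With the shortest of its 8 annotated coding transcripts in place of the longest, the counting interval widened to 0.60 to 1.46.

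The 2 loader subunits had unlike changes. Nipbl, the HEAT-repeat protein that stimulates the cohesin ATPase, was at 9.62 FPKM in WT (about 601 fragments) against 16.0 in the library labelled Eed-/- (about 893 fragments). Its change of 0.82, a ratio of 1.85 (1.67 to 2.05), was the largest of the 10 genes and higher than that of 94.0% of genes that averaged 5 normalized FPKM or more. Nipbl lies on chromosome 15 from 8241225 to 8394463 on the minus strand, with 47 exons. Mau2, the protein that wraps the end of NIPBL and stabilizes it, was at 12.7 and 12.2 FPKM, with a change of 0.08 and a ratio of 1.07 (0.93 to 1.22). Mau2 has 19 exons on chromosome 8 from 72540022 to 72566633 on the minus strand, and against the median of that chromosome its value was 0.48. The ratio of Nipbl to Mau2 within a library needs no scaling between libraries. It was 0.755 (0.669 to 0.853) in WT against 1.32 (1.17 to 1.48) in the library labelled Eed-/-, and these intervals do not overlap. Relative to the medians of their own chromosomes, Nipbl was at 0.81 and Mau2 at 0.48. Genes of chromosome 8, which carries Mau2, had a median change of -0.39. The part of that shift in this ratio was not tested.

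Of the PDS5 pair, Pds5a was at 39.1 FPKM in WT against 36.1 in the library labelled Eed-/-, with a change of 0.07 and a ratio of 1.05 (0.96 to 1.15). Pds5b was at 11.3 and 15.1 FPKM, with a change of 0.54 and a ratio of 1.49 (1.33 to 1.67). Both genes are on chromosome 5, Pds5a from 66006499 to 66089095 on the minus strand with 32 exons and Pds5b from 151476314 to 151613265 on the plus strand with 35 exons (median change 0.01 over 904 genes). Pds5a remained the more abundant paralog in both libraries, by 3.47 times (3.14 to 3.84) in WT against 2.39 times (2.17 to 2.64) in the library labelled Eed-/-. The coding sequences of the pair were 71.5% identical over 3750 aligned bases, with no identical run longer than 23 bases.

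Of the acetyltransferases, Esco1, which acts through the cell cycle and is tied to PDS5, was the lowest of the 10 genes in both libraries, at 5.65 FPKM in WT (about 174 fragments) against 7.64 in the library labelled Eed-/- (about 210 fragments). The change was 0.51 and the ratio 1.504 (1.22 to 1.85). It has 11 exons on chromosome 18 from 10566510 to 10610350 on the minus strand, and 2 partial copies covered 37.9% of its transcript. Whether reads were shared with these copies was not tested. Esco2, which acts in S phase to establish sister chromatid cohesion, was at 37.9 FPKM in WT against 28.5 in the library labelled Eed-/-, the largest downward change of the 10 genes at -0.21, with a ratio of 0.86 (0.77 to 0.96) that lay below 1 by more than counting error. It has 11 exons on chromosome 14 from 66437875 to 66452831 on the minus strand. Esco2 exceeded Esco1 6.71 times (5.69 to 7.96) in WT against 3.74 times (3.17 to 4.41) in the library labelled Eed-/-. Beside Esco2, 9 of 11 S phase genes were below 0, against 7263 of all 14835 genes tested. Their median was -0.47 and 3 were at least 1.5-fold lower, against 12.4% of all genes. They ranged from Mcm3, a subunit of the replicative helicase, at -0.73 to Rrm2, a ribonucleotide reductase subunit, at 0.45. Mcm3 and Mcm6, both on chromosome 1, were at -0.44 and -0.31 relative to the median of that chromosome. Ccne2, the other of the 3 genes at least 1.5-fold lower, was at -0.66 relative to the median of chromosome 4. The 7 G2/M genes had a median of 0.11, from Ccna2, cyclin A2, at -0.17 to Mki67, a proliferation marker, at 0.92. Mki67 was the only one of these 7 past 1.5-fold, against 12.3% of all genes higher. Whether the share of cells in each phase differed was not tested, and in bulk RNA fewer cells and less RNA per cell cannot be told apart.

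The direction of these changes was followed through 10 ways of scaling, filtering and centring. These include the main setting. Both other filters left the values as they were, a changed pseudocount cannot turn a direction, and leaving out small RNAs or repeated symbols hardly touched the values. Smc3, Nipbl, Pds5b and Esco1 were above 0 in all 10, and Rad21, Stag1 and Esco2 were below 0 in all 10. Ctcf turned from below to above 0 relative to its chromosome, Mau2 from above to below in the FPKM as deposited, and Pds5a from above to below in the FPKM as deposited and relative to genes of like GC content. On the deposited scale the median of genes that averaged 5 normalized FPKM or more was itself shifted to -0.16. Transcripts of low GC content had more RNA in the library labelled Eed-/-, the median change being 0.41 over 257 genes at or below 40% GC and -0.13 over 310 genes above 60%. Relative to genes within 2.5 percentage points of GC content, Nipbl (42.9% GC) was at 0.70 and Smc3 (42.3%) at 0.50. Pds5b (40.8%) was then at 0.34 and Esco1 (39.4%) at 0.23, a value not larger than the counting error of Esco1. Esco2, with the lowest GC content of the 10 transcripts at 37.8%, was at -0.59, just past 1.5-fold lower. Relative to the median of chromosome 14, Esco2 was at -0.14, a value not larger than its counting error. Nipbl was at least 1.5-fold higher in every scaling and centring, the lowest value being 0.68 in the FPKM as deposited. Smc3 was under 1.5-fold in the FPKM as deposited (0.43), under median-ratio scaling (0.56) and relative to genes of like GC content (0.50). The part of GC content in these values was not tested beyond this centring.

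**Figure D3:**
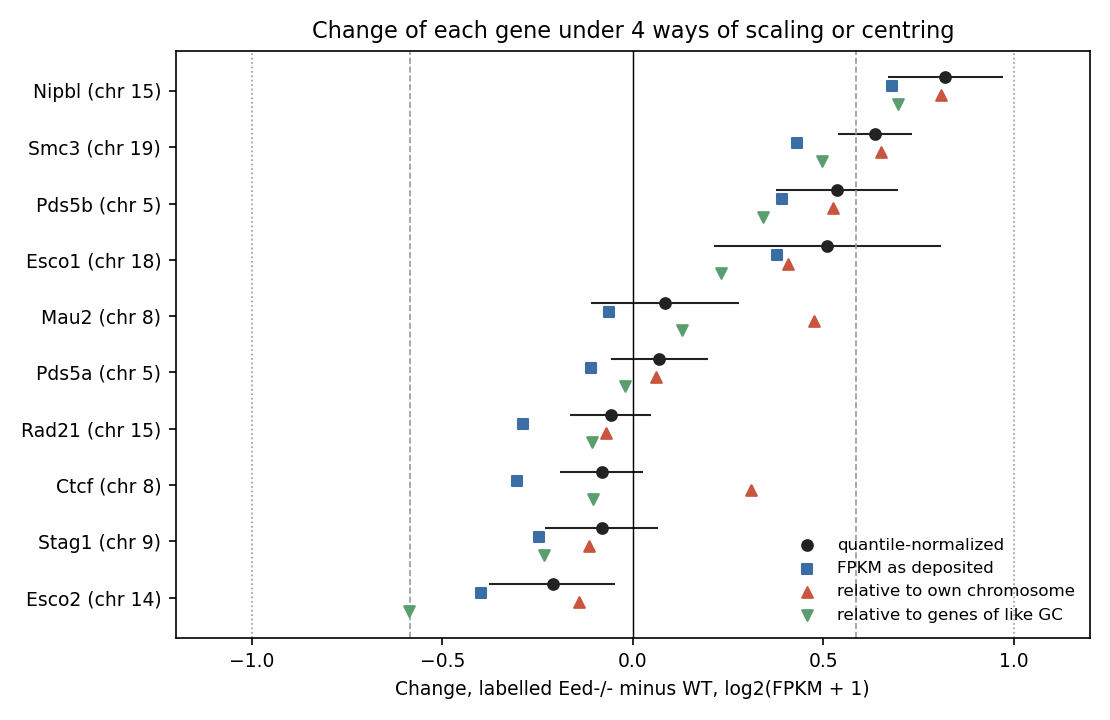
Change of each of the 10 genes (labelled Eed-/- minus WT, log2 of FPKM + 1) after quantile normalization (circles, lines for the 95% counting interval), as deposited (squares), relative to the median of the own chromosome (upward triangles) and relative to genes of like GC content (downward triangles), with dashed lines at 1.5-fold and dotted lines at 2-fold. Ctcf and Mau2 on chromosome 8 move up by chromosome centring, to 0.31 and 0.48, and Nipbl and Smc3 have the 2 highest values in each of the 4 series.

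The cohesin genes on the X chromosome complete the ring. Smc1a, the SMC partner of SMC3, was at 30.9 FPKM in WT (about 1010 fragments) against 59.0 in the library labelled Eed-/- (about 1721 fragments), a change of 1.12 and a ratio of 2.22 (2.05 to 2.40). Genes of the X chromosome had a median change of 0.46 over 539 genes, with 14.5% at least 2-fold higher, and Smc1a stood 0.66 above that median. Stag2, the paralog of Stag1, was at 12.9 and 16.3 FPKM, a change of 0.46 that equals the median of the chromosome. Hdac8, which removes the acetyl groups from SMC3, was at 4.02 and 2.61 FPKM from about 51 and 30 fragments, with a ratio of 0.69 (0.43 to 1.11). The 6 Y chromosome genes tested had a median change of 1.77, and chromosome 1 a median of -0.29 over 797 genes. Whether the libraries share a line or karyotype, and the part of the X-wide shift in these values, was not tested.

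Set side by side within a library, the ring subunits were nearer to one level in the library labelled Eed-/-. In WT, Rad21 exceeded Smc3 1.49 times (1.39 to 1.598) and Smc1a 2.22 times (2.05 to 2.40). In the library labelled Eed-/-, the ratio of Rad21 to Smc3 was 0.897 (0.835 to 0.965), and that of Rad21 to Smc1a was 0.9502 (0.883 to 1.02). The highest of the 3 ring subunits was 2.22 times the lowest in WT against 1.11 times in the library labelled Eed-/-. Stag1 exceeded Stag2 1.55 times (1.39 to 1.73) in WT, while in the library labelled Eed-/- the ratio was 1.03 (0.917 to 1.15) and could not be told from 1. The sum of the STAG paralogs was 32.9 FPKM in WT against 33.0 FPKM in the other library. Smc1a and Stag2 lie on the X chromosome, whose genes had a median change of 0.46. The part of that shift in these ratios was not tested.

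Of 14 genes that act with cohesin in release, protection, cleavage and replication-coupled cohesion, 6 were above 0 and 8 below, with a median of -0.08. None was at least 1.5-fold higher and 3 were at least 1.5-fold lower, against 12.3% and 12.4% of all genes. These were Chtf8, part of the alternative clamp loader that promotes cohesion, at 89.95 and 41.3 FPKM (change -0.89, or -0.50 relative to the median of chromosome 8), Timeless, of the fork protection complex, at 27.8 and 15.0 FPKM (-0.69), and Wdhd1, a replisome scaffold, at 24.1 and 13.4 FPKM (-0.64). Wapal, which opens the ring, had a change of -0.09, and Cdca5 (sororin), which counters it, of -0.23. Changes were 0.33 for Sgol1 and 0.03 for Sgol2, the shugoshins that protect centromeric cohesin. Espl1 (separase) stood at -0.25 and Pttg1 (securin, its inhibitor) at 0.47. The kinases Plk1 and Gsg2 (haspin) had changes of -0.19 and 0.25. Dscc1 and Chtf18, the other clamp loader subunits, were at 0.05 and 0.42, and Ddx11, a helicase needed for cohesion, at -0.07.

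The meiotic paralogs were low, and 4 of 5 passed the filter on low values. Smc1b, the meiotic partner of SMC3, was at 0.179 FPKM in WT (about 5 fragments) against 3.65 in the library labelled Eed-/- (about 91 fragments), a ratio of 20.7 (8.56 to 65.3). Rec8, the meiotic counterpart of RAD21, went the other way, from 4.42 to 1.07 FPKM (about 64 and 14 fragments), a ratio of 0.26 (0.13 to 0.47). Stag3 was at 3.08 and 2.03 FPKM, a change of -0.36. Ctcfl, the germline paralog of Ctcf, was listed at 0 in WT and at 0.306 FPKM (about 6 fragments) in the other library. Rad21l, which did not pass the filter, was listed at 0 and at 0.105 FPKM (about 1 fragment). Both remained far below Ctcf and Rad21.

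Other SMC complexes gave comparison values. Over all genes, 12.3% were at least 1.5-fold higher and 12.4% lower, and 3.8% were at least 2-fold higher and 3.98% lower. The 8 condensin genes had a median change of 0.02, from Ncapg2, a condensin II subunit, at -0.63 to Smc2, shared by both condensins, at 0.64, which were also the only ones past 1.5-fold. The 6 genes of the SMC5/6 complex had a median of 0.18, from Nsmce2, a SUMO ligase, at -0.34 to Smc6 at 0.94, the only one past 1.5-fold. Among 7 other architectural factors the median was -0.04. Yy1, a zinc finger factor at promoter and enhancer loops, was at 36.2 and 15.2 FPKM, a change of -1.02 and the only one of these 7 past 2-fold, and Top2b, a topoisomerase found at CTCF sites, was highest at 0.37. Ldb1, which dimerizes at enhancer loops, was named after its value was seen as the other gene past 1.5-fold, at -0.59.

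**Figure D4:**
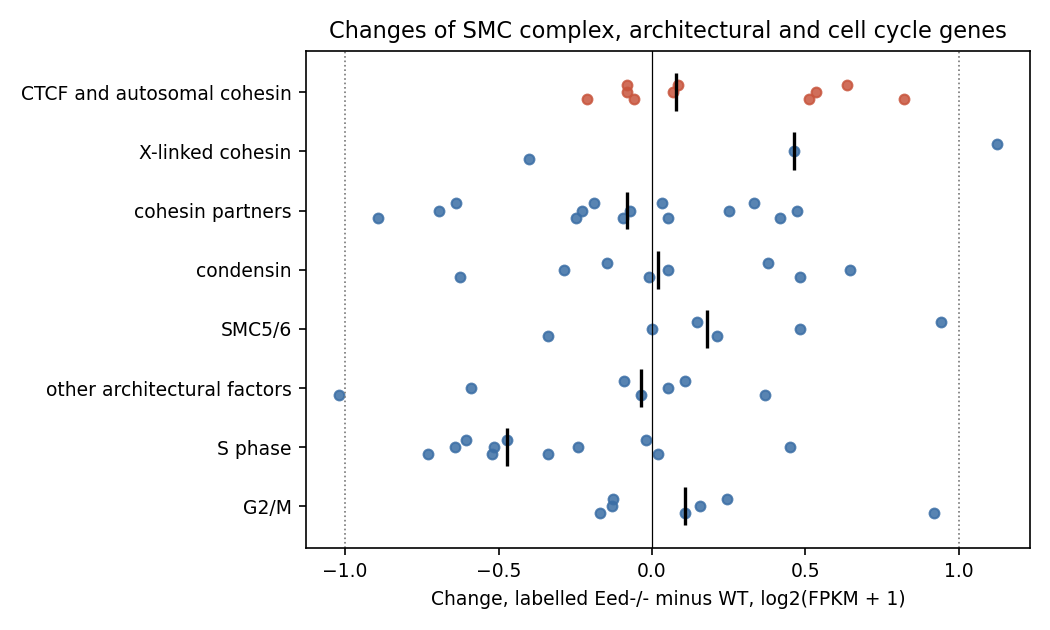
Change (labelled Eed-/- minus WT, log2 of normalized FPKM + 1) of each tested gene in 8 lists, 1 point per gene with the list median as a black bar and dotted lines at 2-fold. The 10 genes (red) have a median of 0.08, X-linked cohesin 0.46 and S phase genes -0.47.

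Depth and cell identity were checked once. About 7240000 fragments were recovered for WT and 6460000 for the library labelled Eed-/-. The 6 pluripotency markers were at 52.6 to 393 FPKM in WT against 49.2 to 373 in the second, with a median change of 0.14. They ranged from Sox2 at -0.08 to Zfp42 at 1.301 (131 and 272 FPKM), and Nanog, at 0.86 (114 and 176 FPKM), was the other one past 1.5-fold. Of all genes, 12.3% were at least 1.5-fold higher. The 5 primitive endoderm markers summed to 9.50 and 37.0 FPKM, of which Lama1 gave 8.25 and 33.5 and Dab2, the least changed, 0.499 and 0.515, and Sox17 was listed at 0 in WT. All 5 were above 0, against 7558 of all 14835 genes tested, with a median change of 0.73. Sox17 passed the filter only through the library labelled Eed-/- (about 9 fragments), so its direction was fixed in advance. Gata4 (about 10 and 28 fragments) and Sox7 (about 7 and 23) were near the floor. The 3 trophoblast markers tested of 4 listed summed to 1.54 and 0.73 FPKM, with Krt7 at 0.981 and 0.11, Hand1 at 0 and 0.541, and the untested Elf5 listed at 0 in both. The 2 fibroblast markers tested of 5 listed summed to 1.44 and 7.11 FPKM, of which Thy1 gave 0.976 and 6.97 and Col1a1 0.46 and 0.137, and Col3a1 was at 0.077 and 0. The part of these differences in the levels of the cohesin genes was not tested.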

How the data were processed

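RNA-seq of WT and Eed-/- mESCs was used, 1 library each. The deposited unit is FPKM per gene symbol: the authors removed ribosomal RNA, made dUTP strand-marked libraries, aligned the reads to mm9 (TopHat) and ran Cufflinks on the alignments. The submitters' processing notes name TopHat2 2.0.11, Bowtie2 2.2.2 and Cufflinks 2.2.1. The annotation is not given in the sources used here. For 268 repeated symbols the values were added up. Quantile normalization followed, and changes were taken with a pseudocount of 1, a scale that understates changes of low genes. A gene was tested if its normalized FPKM averaged 0.1 or more.

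Depth was recovered from the smallest FPKM steps of 5365 single-transcript genes longer than 1000 bp (180 bp taken off each length). The depth was chosen by how close these low values came to whole fragment numbers. Within 0.1 of a whole number lay 79.2% of 906 low values in WT against 79.8% of 1015 in the other library. The share by chance is 20% for a depth fixed beforehand, so these shares are no independent check of the depth. Fragments per gene used the longest coding transcript of GENCODE vM1 on NCBIM37 (mm9) and are approximate for genes with several transcripts and for Nipbl and Pds5a, whose models end with the coding sequence. Intervals are exact (Clopper-Pearson) at 95%. Of 24028 symbols, 21932 had 1 position. Copies were searched with minimap2 2.31. None of the 10 genes had a near-identical copy or shared exons with another gene. Promoters came from RefSeq (GRCm38.p6).

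The members, gene lists and tests were chosen with earlier results of these data known. Named genes were the 10 genes, Eed, all X-linked cohesin genes, all partners and meiotic paralogs, the extremes of each other list, and the 3 genes nearest to Ctcf. Ldb1, Nanog, Sox17, Gata4, Sox7, Elf5, Col3a1, Mcm6 and Ccne2 were named after their values were seen. Tried as alternatives were unscaled FPKM, median-ratio scaling, small RNA symbols left out, a pseudocount of 0.1, a filter at 1 or none, repeated symbols left out, a 1.5-fold threshold, centring on the own chromosome and the shortest transcript. Centring on genes of like GC content was added after seeing the data. Scripts were tested on simulated data. Computations ran in Python 3.11.15 with pandas 2.3.3, numpy 2.4.6, Biopython 1.88 and scipy 1.17.1.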

Additional observations from a re-analysis of the deposited data

How the results depend on the processing

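With 1 library per genotype, depth limits what counting can show, least firmly for Esco1, Hdac8 and the meiotic paralogs, and the spread between cultures is not known. The median change of the 10 genes, 0.08, became -0.086 in the FPKM as deposited and 0.36 relative to the own chromosome. On the deposited scale the median of genes that averaged 5 normalized FPKM or more also moved, from 0.01 to -0.16, and that of all genes to -0.09. The median of 0.36 relative to the own chromosome lies between Ctcf at 0.31 and Esco1 at 0.41. Centring moved Ctcf and Mau2 up by the chromosome 8 median and Esco1 down by that of chromosome 18. With a pseudocount of 0.1, 1694 genes were at least 2-fold higher and 1778 lower, against 564 and 590, since low genes then pass more easily. At 1.5-fold, 1819 genes were higher and 1841 lower, and 2 of the 10 genes were higher. Of the other values for single genes, 12 moved by more than counting error and 88 did not. These 88 include the values under the other filters and the shortest transcript, which those settings cannot change. No change of sign past 2-fold could be counted, since none of the 10 genes reached that threshold. The 1204 small RNA symbols made up 97.7% of all FPKM for WT and 95.0% for the library labelled Eed-/-, and leaving them out before normalization moved none of the values of the 10 genes beyond counting error. No paired analysis was possible because each genotype has 1 RNA-seq library without a replicate number.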
